A study of Homo sapiens with 12 samples.

Results

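10 genes of the integrated stress response were followed in Colo320DM, a line of human colorectal cancer cells, in clones with lowered TET1 and in cells given an inhibitor of DNA methylation. The genes were ATF4, ATF3, DDIT3, DDIT4, SESN2, TRIB3, PPP1R15A, HSPA5, ASNS and CHAC1, and they were chosen by name. All 10 were on the array, out of 20446 array gene names that RefSeq lists as a symbol or synonym. They were measured by 14 probes, of which ATF3 had 4, CHAC1 had 2 and the other 8 genes 1 each. The brightest probe of each gene was well above background on all 12 arrays, so that every gene could be compared in every group.

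The integrated stress response links several kinds of stress to one switch in translation. The kinases PERK, GCN2, PKR and HRI, which sense unfolded protein in the endoplasmic reticulum, missing amino acids, double-stranded RNA and low heme, all phosphorylate the initiation factor eIF2α. General translation then falls while the mRNA of the transcription factor ATF4 is translated more, and ATF4 switches on genes for amino acid supply, for feedback and, when stress lasts, for cell death. Much of the control of ATF4 itself lies in translation, which an mRNA array does not measure.

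Cells were stably transfected with a TET1 knockdown vector or with a negative control plasmid, both of which express an artificial microRNA with a GFP marker, and single colonies resistant to G418 were grown as clones. TET1 oxidises the methyl group of 5-methylcytosine. There were 3 control clones and 3 TET1 knockdown (KD) clones, and every clone gave 1 mock-treated array and 1 array from cells exposed for 72 h to 5-aza-dC (5-aza-2'-deoxycytidine) at 1 µM, which blocks DNA methyltransferases, so that there were 4 groups of 3 arrays. All groups share the parent line, the drug selection and the single-colony origin, and per the study KD clones 1 and 2 carried one knockdown vector (miTET1-1) and KD clone 3 the other (miTET1-2), which the array labels do not state. Replicates are clones, so differences between control and KD clones include whatever else differs between single-cell derived clones. Signals are log2 values minus the array's 75th percentile, so 0 is the level of a probe at that percentile and negative values are below it.

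The 12 arrays lay on 2 slides that the groups filled unevenly. Slide 1 carried control clones 1 and 2 and KD clones 1, 2 and 3 after mock treatment, and KD clones 1 and 3 after 5-aza-dC. Slide 2 carried treated KD clone 2, all treated control clones and, of the mock arrays, control clone 3. Only control clone 3 and KD clones 1 and 3 had both arrays on 1 slide. Values with the slide as a block or within 1 slide are therefore given beside the main results. Of the 8 intestinal epithelial markers checked, KRT8, KRT18, KRT20 and CDX2 were well above background on all arrays, EPCAM on 10 and VIL1 on 1, whereas CDH1 and CEACAM5 were so on none. Among markers of other cell types PTPRC and COL1A1 were above background on all 12 arrays, while PECAM1 and COL1A2 were so on none. TET1 at its brightest probe was between 4.23 and 4.67 in the mock control clones and between 3.51 and 3.60 in the mock KD clones, a difference of -0.93 that limma did not call (adjusted p = 0.276). The 2 dimmer TET1 probes gave -1.35 and -1.08 in mock clones, not called either (limma adjusted p = 0.243 and 0.396). The study itself assessed the knockdown in its clones by RT-qPCR. After treatment KD clone 2 reached 4.31 at the brightest probe, within the 4.06 to 4.42 of the treated control clones, whereas at the 2 dimmer probes it lay below all of them.

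The promoters of all 10 genes are listed in RefSeq, as windows from 250 bases before to 50 after an annotated start (300 bases in all, build GRCh38.p14). 3 motifs of this pathway were searched in them on both strands. The first was TGATGNAA, the core of the C/EBP-ATF response element that ATF4 binds together with a C/EBP protein. It was found for ASNS, ATF3 and CHAC1, and in 3.62% of all 35116 windows, or for 4.46% of their 27305 genes. The second was TGACGTCA, the cyclic AMP response element, which ATF and CREB factors bind. It was found for PPP1R15A, and in 1.85% of all windows, or for 2.25% of all genes. The third was the endoplasmic reticulum stress element, CCAAT and CCACG with 9 bases between them. It was found for HSPA5, and in 0.0769% of all windows, or for 0.0916% of all genes. ATF4, DDIT3, DDIT4, SESN2 and TRIB3 held none of the 3 in these windows. The matches are given in capitals, 5′ to 3′ on the strand of the gene, with up to 20 bases on each side. The ATF3 match lies in the window that begins at 212565157, and its other listed window begins at 212614768. Sequence outside the listed windows was not searched, and binding was not measured. In CHAC1 the motif lies on the opposite strand.
ASNS (chr7:97872449-97872496, minus strand, match starting 68 bases before the start): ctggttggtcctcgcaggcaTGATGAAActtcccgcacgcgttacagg
ATF3 (chr1:212565196-212565243, plus strand, 191 bases before): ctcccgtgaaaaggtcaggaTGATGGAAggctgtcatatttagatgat
CHAC1 (chr15:40953242-40953289, plus strand, 209 bases before): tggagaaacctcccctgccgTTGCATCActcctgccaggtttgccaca
PPP1R15A (chr19:48872343-48872390, plus strand, 58 bases before): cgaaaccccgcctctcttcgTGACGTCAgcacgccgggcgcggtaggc
HSPA5 (chr9:125241371-125241429, minus strand, 66 bases before): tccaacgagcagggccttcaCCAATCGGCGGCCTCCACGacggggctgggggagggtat

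DDIT4 and DDIT3, the genes whose signal rose with the methylation inhibitor, have promoters rich in CpG, the dinucleotide that DNA methyltransferases methylate. The 300-base window of DDIT4 held 30 CpG and those of DDIT3 held 26 and 27, against a median of 14 and an upper quartile of 28 over all windows. The other members also held many (24 to 38 in ASNS, ATF4, CHAC1, HSPA5, PPP1R15A, SESN2 and TRIB3), except ATF3, whose listed windows held 4 and 1. CpG outside the listed windows were not counted. The 150 bases before the start are shown with CpG in capitals. Methylation of these CpG was not analysed here.
DDIT4 (chr10:72273774-72273923, plus strand, 15 CpG): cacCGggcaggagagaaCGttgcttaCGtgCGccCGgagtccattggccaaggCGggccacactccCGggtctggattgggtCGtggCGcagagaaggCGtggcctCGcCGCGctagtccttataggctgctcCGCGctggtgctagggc
DDIT3 (chr12:57520515-57520664, minus strand, 12 CpG): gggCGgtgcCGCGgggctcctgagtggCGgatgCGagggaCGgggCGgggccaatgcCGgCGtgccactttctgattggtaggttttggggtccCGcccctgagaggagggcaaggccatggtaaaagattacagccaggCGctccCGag

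**Figure D1:**
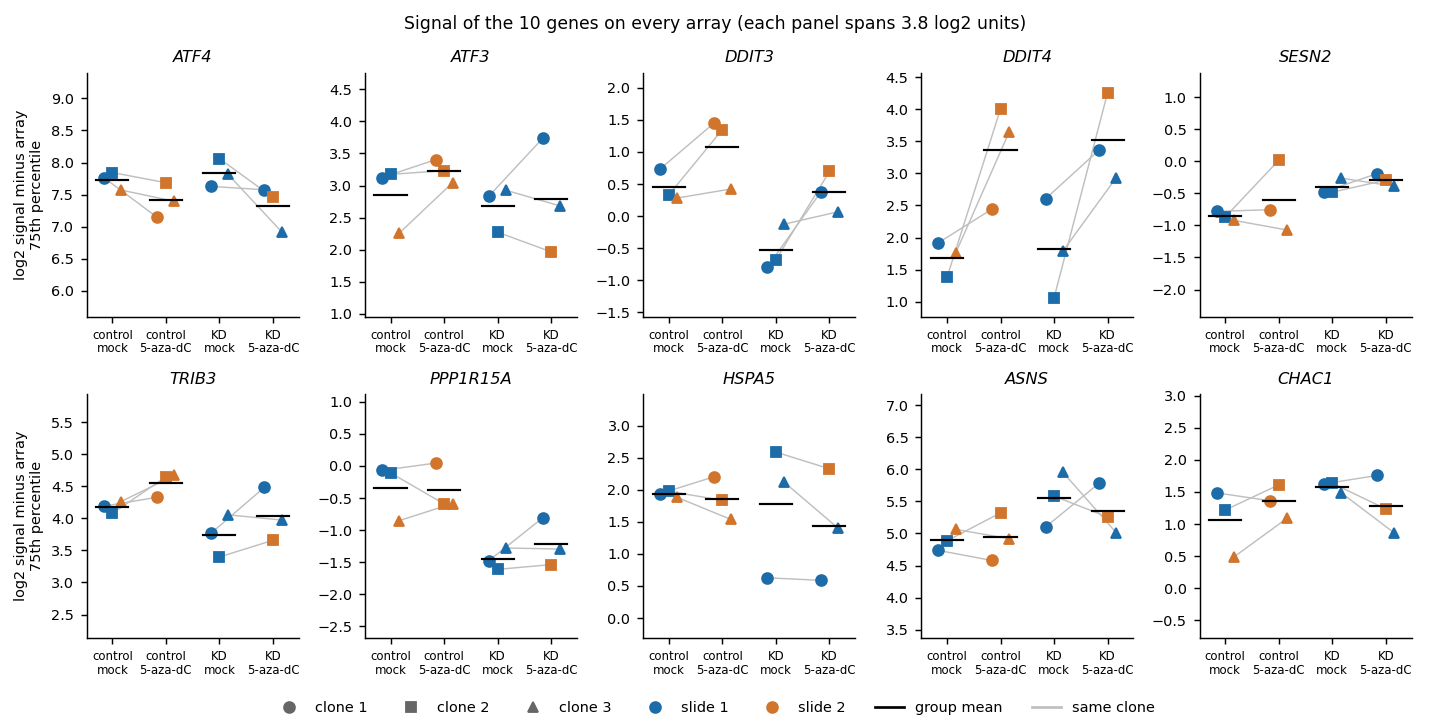
Signal of the brightest probe of each of the 10 genes on every array (log2 signal minus the array's 75th percentile), with symbols for the clone, colours for the slide, black bars for group means and grey lines joining the mock and treated array of a clone. DDIT4 and DDIT3 run upward in all 6 clones and ATF4 downward, PPP1R15A is lower in KD than in control clones in both conditions, and HSPA5 is low on both arrays of KD clone 1.

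The first comparison asked whether 5-aza-dC changed these genes, as the mean effect over the 6 clones. DDIT4 and DDIT3 rose, and the other 8 genes did not pass the test. In bulk RNA, a change per cell and a change in the share of cells that express a gene cannot be told apart. The 2 genes called by limma, both higher, compare with 13.2% of 27287 probes called in either direction and 7.29% called higher. The median difference of the 10 genes was 0.14, against -0.05 for all probes tested. Measured this way, 6 genes had a positive and 4 a negative difference, and with the array median as the scale 4 were positive and 6 negative, while the median of all probes moved to -0.29.

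DDIT4, also known as REDD1, encodes an inhibitor of the growth kinase mTORC1 and is induced by ATF4, low oxygen and DNA damage. Its probe (A_23_P104318, hg19 chromosome 10, 74035363 to 74035422) was spotted 10 times per array, and the spots of 1 array varied by 2.45% to 4.82% (coefficient of variation). In mock control clones 1, 2 and 3 its log2 signal was 1.92, 1.38 and 1.76, and after 5-aza-dC it was 2.44, 4.01 and 3.64. In mock KD clones 1, 2 and 3 it was 2.60, 1.06 and 1.78, and after treatment 3.36, 4.26 and 2.93. The treated and mock arrays did not overlap in either clone type, and clone 2 had the lowest mock and the highest treated signal in both. The mean log2 difference over all clones was 1.69 (SE 0.35, 95% interval 0.91 to 2.47), a 3.23-fold higher signal (limma adjusted p = 0.0121).

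The size of the DDIT4 change differed between clones by more than the spots of an array did. It was 0.52, 2.63 and 1.89 in control clones 1, 2 and 3 and 0.76, 3.20 and 1.15 in KD clones 1, 2 and 3. A higher signal in all 6 clones was seen for 12.7% of all probes tested. The change in control clones was 1.68 (SE 0.42) and that in KD clones 1.70 (SE 0.50), and within each clone type alone it missed the threshold of limma's test (adjusted p = 0.0763 and 0.298). The difference between these responses was 0.02, with a 95% interval of -1.54 to 1.59, an interval that leaves room for a large difference in either direction. With slide as a block the change over all clones was 1.39 and was no longer called (limma adjusted p = 0.0785). The clones with both arrays on 1 slide gave 1.89, 0.76 and 1.15, and together a change of 1.27 (limma adjusted p = 0.0851), an analysis added after the data were seen. Without control clone 2 the change was 1.45 and was not called either (limma adjusted p = 0.0803).

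DDIT3 encodes CHOP, a transcription factor that ATF4 induces and that promotes cell death when stress persists. Its probe (A_23_P21134, chromosome 12, 57911200 to 57911526 on the minus strand) covers 327 bases of the genome against 60 for most other probes here. The log2 signal was 0.74, 0.33 and 0.28 in mock control clones 1, 2 and 3 and 1.45, 1.35 and 0.42 after 5-aza-dC. In KD clones 1, 2 and 3 it was -0.79, -0.68 and -0.12 after mock treatment and 0.38, 0.70 and 0.07 after 5-aza-dC. In KD clones the treated arrays lay above all mock arrays, whereas in control clones treated clone 3 lay within the mock range. The mean difference was 0.77 (SE 0.22, 95% interval 0.28 to 1.25), or 1.70-fold (limma adjusted p = 0.0441). By clone it was 0.71, 1.02 and 0.14 in control clones and 1.17, 1.38 and 0.19 in KD clones, so that clone 3 of either type changed least. The DDIT3 call was close to the threshold and was lost with slide as a block (0.71, limma adjusted p = 0.142), with the array median as the scale (0.53, adjusted p = 0.0862) and in the clones with both arrays on 1 slide (0.50, adjusted p = 0.276). It was also lost without control clone 1 or 2 (adjusted p = 0.128 and 0.2) and without KD clone 1 or 2 (adjusted p = 0.133 and 0.142), with differences of 0.65 to 0.75 in those fits.

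ATF4 itself did not rise. Its probe (A_23_P120933, chromosome 22, 39918577 to 39918636) read 7.77, 7.84 and 7.57 in mock control clones 1, 2 and 3 and 7.14, 7.68 and 7.40 after 5-aza-dC. In KD clones it read 7.63, 8.06 and 7.82 after mock treatment and 7.58, 7.46 and 6.92 after treatment. The treated array was below the mock array in 6 of 6 clones, by between 0.05 and 0.89, and 17.0% of all probes tested were lower in all clones. The mean difference was -0.42 (SE 0.16, 95% interval -0.77 to -0.06) and was not called (limma adjusted p = 0.105). With the array median as the scale it was -0.66 and was called (limma adjusted p = 0.0142), on a scale where the median of all probes was -0.29.

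**Figure D2:**
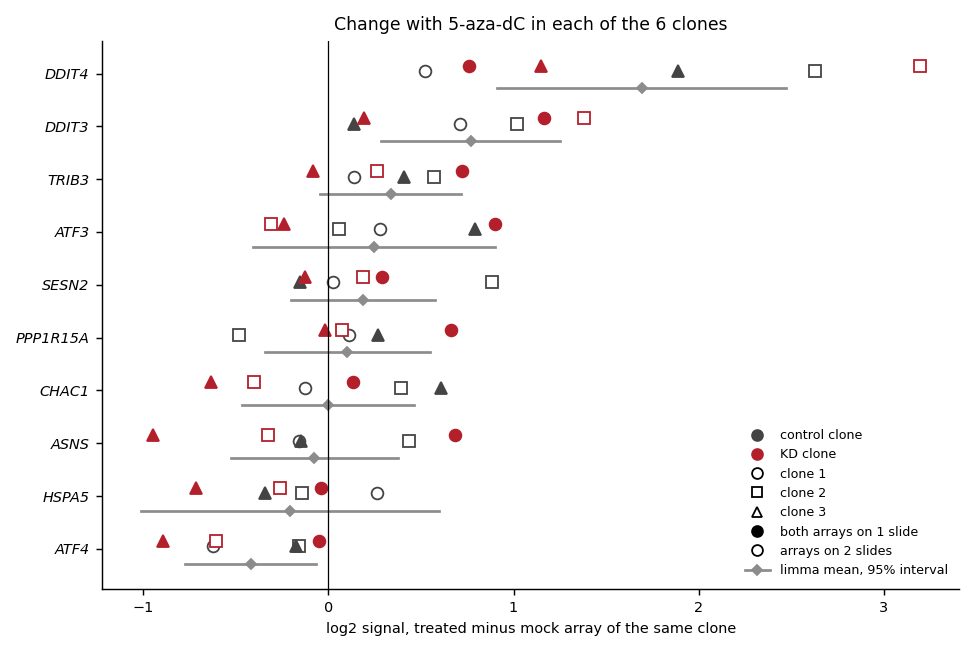
Change with 5-aza-dC in each clone (log2 signal of the treated minus the mock array) for the 10 genes, with filled symbols for clones whose arrays shared a slide and grey diamonds with lines for the limma mean and its 95% interval. DDIT4 lies between 0.52 and 3.20 and DDIT3 between 0.14 and 1.38, ATF4 lies between -0.89 and -0.05, and the other 7 genes have clones on both sides of 0.

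The other 7 members had intervals that included 0. TRIB3, a pseudokinase that ATF4 and CHOP induce and that restrains ATF4, had a difference of 0.34 (95% interval -0.05 to 0.72) and was higher in 5 of 6 clones. SESN2, a leucine sensor that also restrains mTORC1, had 0.19 (-0.20 to 0.57). PPP1R15A, known as GADD34, the subunit that directs protein phosphatase 1 to remove the phosphate from eIF2α, had 0.10 (-0.34 to 0.55). ASNS, asparagine synthetase, had -0.08 (-0.53 to 0.37), and CHAC1, an enzyme that degrades glutathione, had -0.00 (-0.47 to 0.46). HSPA5, the endoplasmic reticulum chaperone BiP, had -0.21 (-1.01 to 0.60), the widest interval of the 10. ATF3, a repressor and partner in the same family, had 0.25 (-0.41 to 0.90) at its brightest probe (A_23_P34915, chromosome 1, 212793856 to 212793915), whereas its 3 dimmer probes gave -0.49, 0.03 and -0.46, so no direction can be given for ATF3. Limma called none of these 3 probes. With slide as a block the brightest probe of ATF3 was at 0.78 (limma adjusted p = 0.0802), PPP1R15A at 0.41, CHAC1 at 0.23 and HSPA5 at -0.52, each further from 0 and none called. TRIB3, SESN2 and ASNS were at 0.45, 0.21 and -0.10 in that fit, and the median of the 10 genes was 0.32 against -0.08 for all probes.

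Taken by clone type, limma called none of the 10 genes in control clones (5.22% of all probes were called) and none in KD clones (2.04% were called). At an unadjusted p under 0.05 there was 1 gene in control clones, DDIT4, against 26.5% of all probes, and there were 2 in KD clones, DDIT4 and DDIT3, against 9.15%. The treated and mock arrays did not overlap for 2 of the 10 genes in control clones, DDIT4 and TRIB3, and for 3 in KD clones, DDIT4, DDIT3 and ATF4, against 32.5% and 19.2% of all probes tested. No member was called for a difference in response between control and KD clones (0.0366% of all probes were called). At an unadjusted p under 0.05 there was also none. The widest difference was that of CHAC1, whose response was 0.59 lower in KD clones with a 95% interval of -1.52 to 0.34.

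The second comparison asked whether TET1 knockdown changed the pathway in mock-treated cells. Limma called none of the 10 genes, where 0.137% of all probes were called, and the smallest adjusted p was 0.326. At an unadjusted p under 0.05 there were 4 of 10, namely PPP1R15A, DDIT3, SESN2 and ASNS, against 11.2% of all probes. The arrays of the clone types did not overlap for 6 of the 10 genes, against 21.4% of all probes, and these 6 went in both directions. PPP1R15A, DDIT3 and TRIB3 were lower in KD clones and ASNS, SESN2 and CHAC1 higher. For each of the 6 the exact permutation test gave p = 0.1 (two-sided), the smallest that 3 clones against 3 allow. The median difference of the 10 genes was -0.02 against 0.04 for all probes.

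PPP1R15A was the member with the largest difference between clone types. Its probe (A_23_P90172, chromosome 19, 49378127 to 49378901) read -0.07, -0.11 and -0.85 in mock control clones 1, 2 and 3 and -1.47, -1.61 and -1.28 in mock KD clones. All KD clones lay below all control clones, the nearest pair being control clone 3, which was on slide 2, and KD clone 3. The difference was -1.11 (SE 0.27, 95% interval -1.75 to -0.47), which left 46.3% of the control signal (limma adjusted p = 0.326). On slide 1 alone, with 2 control and 3 KD clones, it was -1.37. With all 12 arrays fitted and the slide blocked it was -1.32, the only alternative in which it was called (limma adjusted p = 0.0486). After 5-aza-dC the signal was 0.04, -0.59 and -0.58 in control clones and -0.81, -1.54 and -1.29 in KD clones. These groups again did not overlap, with a difference of -0.84 (SE 0.29, 95% interval -1.53 to -0.14) that limma did not call (adjusted p = 0.226). On slide 2, where KD clone 2 alone faced the 3 control clones, the treated difference was -1.16.

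DDIT3, whose mock values are given above, was lower in mock KD clones by -0.98 on the log2 scale (SE 0.25, 95% interval -1.59 to -0.37), or 50.6% of the control signal (limma adjusted p = 0.354). On slide 1 the difference was -1.07. After treatment the clone types overlapped, with a difference of -0.69 (95% interval -1.50 to 0.11). The mock KD arrays are the same ones that the response to 5-aza-dC was measured against, so the low mock value of DDIT3 and its response in KD clones share these arrays.

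TRIB3 was 4.19, 4.08 and 4.26 in mock control clones and 3.76, 3.40 and 4.05 in mock KD clones, a difference of -0.44 (95% interval -0.97 to 0.10). ASNS read 4.74, 4.89 and 5.06 in mock control clones and 5.10, 5.58 and 5.96 in mock KD clones, a difference of 0.65 (95% interval 0.02 to 1.28). The gap between the closest ASNS arrays was small, 5.06 in control clone 3 against 5.10 in KD clone 1. SESN2 was between -0.92 and -0.78 in mock control and between -0.48 and -0.26 in mock KD clones, a difference of 0.45 (95% interval 0.04 to 0.86). CHAC1 was between 0.48 and 1.49 in control and at 1.49 to 1.64 in KD clones, and its difference of 0.52 fell to 0.23 on slide 1. Its dimmer probe gave 1.08 with control clone 3 not above background, and limma did not call either probe. DDIT4, ATF4, HSPA5 and ATF3 overlapped between the clone types, with differences of 0.13, 0.11, -0.16 and -0.17.

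After 5-aza-dC limma again called none of the 10 genes between KD and control clones, where 0.096% of all probes were called. PPP1R15A was the only member at an unadjusted p under 0.05, against 19.3% of all probes, and the only one without overlap between the groups, against 25.0%. The median of the 10 differences was -0.25, with 7 negative and 3 positive, against -0.01 for all probes. ASNS and SESN2 had differences of 0.41 and 0.31 and TRIB3 -0.51, with intervals that included 0.

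**Figure D3:**
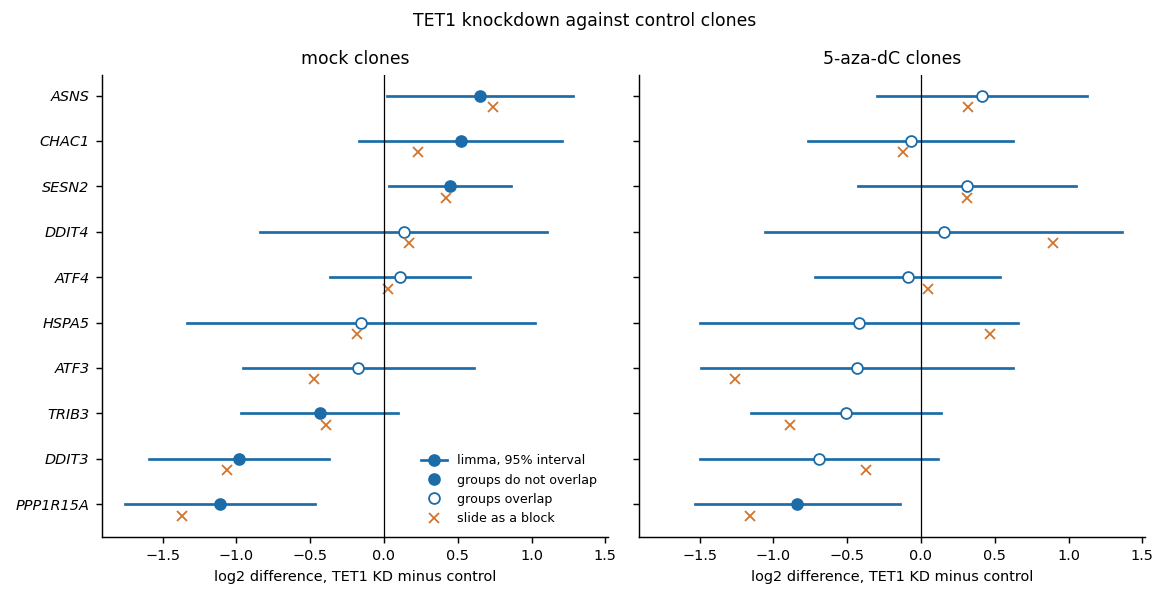
TET1 KD minus control clones for the 10 genes after mock treatment (left) and after 5-aza-dC (right), as log2 differences with 95% intervals from limma, filled where the 3 KD and 3 control arrays did not overlap, and crosses for the value with slide as a block. PPP1R15A is at -1.11 and -0.84 and is filled in both panels, while DDIT3, TRIB3, ASNS, SESN2 and CHAC1 are filled in mock clones and open after treatment.

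HSPA5 stood out by clone rather than by group. Its probe (A_24_P98411, chromosome 9, 127997149 to 127997208 on the minus strand) read 0.63 and 0.59 on the mock and treated arrays of KD clone 1 and between 1.40 and 2.59 on the other 10 arrays. No other member was lowest on both arrays of that clone. This pattern was noticed after the values were seen, and 5.17% of all probes had both arrays of KD clone 1 below the other 10. Of 17 further genes of the endoplasmic reticulum chaperone arm, 4 shared it, namely DNAJC3, HSP90B1, CALR and XBP1. DNAJC3, a co-chaperone that restrains PERK, read 1.11 and 1.36 on those 2 arrays and between 1.76 and 2.43 elsewhere. The gaps of the other 3 were smaller. HSP90B1 was also lower on every array of slide 1, which held both arrays of KD clone 1, than on any array of slide 2. In XBP1, the transcription factor that the sensor IRE1 activates by splicing, the clone read 5.00 and 5.15 and the lowest other array 5.27. As KD clone 1 is 1 clone, its level cannot be told apart from that of the single cell it was grown from.

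The wider pathway was read from 8 lists with 82 genes, each by its brightest probe. For the change with 5-aza-dC averaged over the clones, the lists differed in their median. Few genes in each were called, in a fit where 13.2% of all probes were called. Upstream, 7 genes for eIF2α kinases and factors had a median of -0.10, and 1 was called, EIF2AK2, which encodes PKR and fell by 0.90 on the log2 scale (limma adjusted p = 0.0386). Its clones on 1 slide changed by -0.42, -0.31 and -0.60, and with slide as a block it was at -0.40 and no longer called (limma adjusted p = 0.144). EIF2AK4, the amino acid sensor GCN2, had 0.59 and was not called (adjusted p = 0.142). EIF2AK4 changed by -0.019, -0.291 and -0.035 in the clones on 1 slide and by 1.22, 1.39 and 1.25 in the others. None of 5 partner transcription factors was called, and NUPR1 had the widest difference, 1.17 (SE 0.70, adjusted p = 0.269), with JDP2 at 0.18.

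Genes of amino acid supply, the metabolic arm of ATF4, lay mostly below 0. Of 10 genes of amino acid synthesis and one-carbon metabolism 7 had a negative difference (median -0.17), of 8 amino acid transporters 6 (median -0.17), and of 13 genes of tRNA charging 10 (median -0.25), against -0.05 for all probes. These medians, with slide as a block, were -0.23, -0.44 and -0.17, against -0.08 for all probes. Called lower were PHGDH, the entry enzyme of serine synthesis, at -0.70 (SE 0.15, limma adjusted p = 0.0146) and SLC38A2, a carrier of neutral amino acids, at -0.77 (SE 0.19, adjusted p = 0.0224). PHGDH was between 5.29 and 5.93 on mock arrays and between 4.50 and 5.16 on treated arrays, without overlap. It was lower in all 6 clones, as were 17.0% of all probes tested. With slide as a block both lost their call (PHGDH -0.63, limma adjusted p = 0.0578, and SLC38A2 -0.44, adjusted p = 0.0793). PHGDH also lost it without control clone 1 or KD clone 3, and SLC38A2 without any 1 clone but control clone 3. SLC7A11, the cystine carrier, had -0.67 (adjusted p = 0.0646) and the tyrosine-tRNA ligase gene YARS -0.80 (adjusted p = 0.0728), with IARS at -0.31. YARS changed by -0.30, 0.12 and -0.42 in the clones with both arrays on 1 slide. In the others it changed by -1.38, -1.19 and -1.64. ALDH1L2, a mitochondrial folate enzyme, was not well above background on any mock array and was so on 3 of 6 treated ones. It was tested only because those 3 treated arrays passed the filter. Its call as higher (limma adjusted p = 0.0487) thus rests on values near background, and no fold is given. The call was lost with slide as a block (adjusted p = 0.25) and without any 1 of the 6 clones.

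The list of other ATF4 or CHOP targets had a median of 0.49 over 9 genes tested of 10, with 6 positive and 3 negative differences. Its median was 0.18 with slide as a block, below the 0.27 of the partner transcription factors. 2 were called, both higher, against 7.29% of all probes called higher. They were GDF15, a secreted stress hormone, and VLDLR, a lipoprotein receptor. GDF15 was 2.15-fold higher (log2 1.11, SE 0.26, limma adjusted p = 0.0205), and by clone it changed by 2.30, 1.55 and 1.21 in control and 1.26, 0.28 and 0.05 in KD clones. VLDLR was 1.80-fold higher (log2 0.85, SE 0.18, adjusted p = 0.0129), with every clone between 0.31 and 1.12. Both genes were higher in all 6 clones, as were 12.7% of all probes tested. With slide as a block they were at 1.36 and 0.99 and still called (limma adjusted p = 0.0253 and 0.0192). In control clones alone they were 1.69 and 1.01 and called (adjusted p = 0.045 and 0.0282), GDF15 not with slide as a block (adjusted p = 0.161). Both of these control-clone calls were lost without any 1 array but mock control clone 3 (adjusted p up to 0.198 and 0.165), by the methods' t-test, with normexp and with no filter on dim probes. Neither was called in the 3 clones with both arrays on 1 slide, without control clone 1 or without control clone 2, nor was GDF15 without KD clone 1. STC2 and INHBE had wider differences, 1.26 and 1.25, that were not called, and each was well above background on only 1 mock and 3 treated arrays.

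Of 17 genes of the endoplasmic reticulum chaperone arm, which share the unfolded protein response with HSPA5, limma called none, against 13.2% of all probes. Their median was 0.03, with 12 positive and 5 negative differences (with the array median as the scale -0.21, with 4 positive and 13 negative), and HSP90B1 and HYOU1 had 0.52 and -0.51 (adjusted p = 0.309 and 0.1). Of 12 immediate-early genes, a response that shares ATF3 and is set off by growth factors, 3 were called lower, FOS at -2.70, EGR1 at -2.59 and FOSB at -1.62. These means join unlike responses, since FOSB changed by -3.96, -5.79 and -3.23 in control clones and by 0.97, 1.44 and 0.83 in KD clones, FOS by -5.01 on average in control clones and by -0.35, -0.82 and -0.02 in KD clones. FOSB was well above background on only 2 of 3 mock KD and 2 of 3 treated control arrays, so the sizes of its changes rest on values near background. The difference in response was called for FOS and EGR1 (4.61 and 5.21, limma adjusted p = 0.0326 and 0.00789) and not for FOSB (5.41, adjusted p = 0.239). Both calls were lost when any 1 clone but control clone 3 was left out. They were also lost with a replicate block, which pairs the mock and treated array of a clone. EGR1 was not called either with slide blocked in addition, nor FOS with no filter on dim probes. FOS was between 3.33 and 5.00 on the mock control arrays and between -2.34 and -0.59 on the other 9 arrays, and with slide blocked FOSB lost its call (-1.04, limma adjusted p = 0.246). ATF3 was at 3.12, 3.17 and 2.26 in mock control clones and 2.84, 2.27 and 2.92 in mock KD clones.

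**Figure D4:**
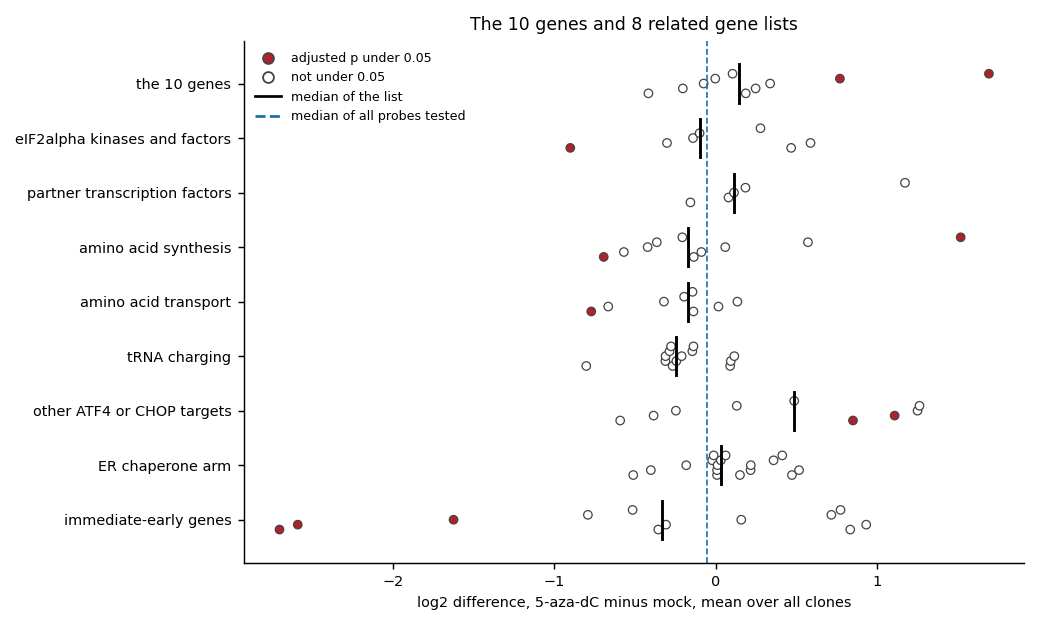
Log2 difference between 5-aza-dC and mock, as the mean over all clones, for the 10 genes and 8 lists of related genes, with red points for an adjusted p under 0.05, black bars for list medians and a dashed line for the median of all probes tested. DDIT4 and DDIT3 are the red points of the 10 genes at 1.69 and 0.77, the lists for amino acid supply and tRNA charging have medians of -0.17 to -0.25, and the list of other ATF4 or CHOP targets has a median of 0.49.

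Between KD and control clones no gene of these lists was called after 5-aza-dC, against 0.096% of all probes. In mock clones, with 0.137% of all probes called, only FOS and EGR1 were, both lower in KD clones (-5.98 and -6.25, limma adjusted p = 0.0107 and 0.00146). The call of FOS was lost when control clone 1, KD clone 1 or KD clone 3 was left out. MTHFD2, a mitochondrial folate enzyme that ATF4 induces as it does ASNS, had differences of 0.88 (SE 0.24, limma adjusted p = 0.362) in mock and 0.85 (SE 0.21, adjusted p = 0.176) in treated clones. Its KD arrays were between 5.27 and 5.66 and its control arrays between 4.34 and 4.98, without overlap. The clone types did not overlap for 21.4% of all probes in mock and 25.0% in treated clones. EIF2AK2 had 0.66 and 1.00, and GDF15 -0.46 and -1.61, none of them called. EIF2AK2 was lower on every array of slide 2 than on any array of slide 1. Of the treated arrays on slide 2, KD clone 2 read 2.20 and control clones 1, 2 and 3 read 1.64, 2.20 and 2.00. Of the mock arrays on slide 1, the KD clones were between 3.50 and 3.79 and control clones 1 and 2 at 3.24 and 3.39.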

How the data were processed

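RNA of 12 Colo320DM arrays was read from the deposited scanner files, which hold the intensity of each spot as the authors extracted it with Agilent Feature Extraction (version 10.7 per the labels), with background correction and without normalization between arrays. The deposited series table, an alternative here, holds the same intensity rounded. Control and outlier spots were left out, log2 values of a probe's spots were averaged, and each array was centred on its 75th percentile. Probes well above background on at least 3 arrays of a fit were tested with limma 3.58.1 (R 4.3.3, two-sided) on the 2 groups compared, or on all 12 arrays for the mean effect of 5-aza-dC and the difference in response, with Benjamini-Hochberg adjustment over all probes and a threshold of 0.05. Between 45.7% and 52.9% of probes were well above background, and none was saturated. The number of arrays limits precision.

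Treated and mock arrays of one number are the same clone per the labels, and their deviations from the group means correlated at 0.213 to 0.316 in control and 0.431 to 0.525 in KD clones. Named were the 10 genes by their brightest probe, TET1, and per list and comparison up to 2 genes with the widest difference, with called ones. The members and lists were chosen with earlier results of these data known. FOS, EGR1, HSP90B1, DNAJC3, CALR, XBP1, YARS, EIF2AK1, EIF2AK2, EIF2AK3 and EIF2AK4 values outside that rule were chosen after they were seen. The scripts were tested on simulated data. There limma called 0 of 100 probes with a true change of 1 log2 unit between KD and control clones, mock or treated. At 2 log2 units it called 50 of 100 in mock and 46 in treated clones. For 5-aza-dC over all clones it called 44 of 100 at 1 log2 unit and 92 at 2. A missing call therefore does not show that a gene was unchanged. Probe positions are those of the files (hg19), and exon or UTR was not analysed here. 1 marker of another cell type is not reported here.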

Additional observations from a re-analysis of the deposited data

How the results depend on the processing

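Of the 60 differences of the 10 genes over the comparisons, 32 kept their sign under every alternative and 28, none of them called and none wider than 0.42, changed it in at least 1. With 3 arrays per group, many differences near 0 had no settled sign. Over all clones the 2 called genes became 1 with no filter on dim probes (DDIT4) and with slide as a random block (DDIT4), and 0 with slide as a block, with the replicate block and slide together, and in clones with both arrays on 1 slide. Leaving out 1 clone gave 0 to 2, with 0 without control clone 2. The array median kept 2, DDIT4 and ATF4. PPP1R15A was the 1 gene called between mock clones, with all 12 arrays and slide as a block. The methods' t-test called none of the 10 genes in the 4 two-group comparisons. The causes were not tested.

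Counts over all probes moved more. Between mock clones 34 probes became 5 with detection required on every array, 4 by the methods' t-test, 84 with all 12 arrays, 115 with slide as a block in addition, and 8 to 94 with 1 array left out (94 without KD clone 2, and 8 to 14 without any other). After treatment 24 became 39 with the array median, 10 with normexp, 12 with no filter, 0 with detection on every array (4372 at an unadjusted p under 0.05), 57 with slide as a block, 3 by the methods' t-test, 187 with all 12 arrays and 37 with slide as a block in addition. With 1 treated array left out it was 0 to 7727, the latter without KD clone 2, which leaves the treated KD arrays on slide 1 and the treated control arrays on slide 2. It was 0 without control clone 2 or 3 or KD clone 3 (2725, 2687 and 2283 unadjusted).

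For 5-aza-dC in control clones 1286 became 2539 with the array median, 427 with detection on every array, 516 with slide as a block, 842 with slide as a random block and 358 by the methods' t-test. With 1 array left out it was 32 to 8619, the latter without mock control clone 3, the only mock control array on slide 2, and 32 without treated control clone 3. In KD clones 519 became 267 with normexp, 50 with detection on every array, 211 by the methods' t-test, 818 with all 12 arrays, 844 with slide as a block in addition, and 17 to 470 with 1 array left out (17, 19 and 46 without treated KD clone 3, 1 and 2). Over all clones 3612 became 8549 with the array median, 1994 with detection on every array, 884 in clones with both arrays on 1 slide, and 1412 to 4874 with 1 clone left out (1412 without control clone 2, 4874 without control clone 3). The share called higher over all clones was 55.1%, and 45.0% with quantile normalization and 19.9% with the array median. In control clones it was 73.7%, 61.7% and 35.0%. For the difference in response 10 became 4 with no filter, 4 with detection on every array and 1 to 9 with 1 clone left out. That of DDIT4 turned to -0.028 with the array median and ran from -0.726 to 0.496 with 1 clone left out (-0.726 without KD clone 2, -0.556 without control clone 1).

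With the replicate block, which pairs the mock and treated array of a clone, DDIT4 and DDIT3 stayed called over all clones (limma adjusted p = 0.0363 and 0.0471), and the difference in response went from 10 probes to 2. With slide as a block in addition the changes were 1.21 and 0.41 (adjusted p = 0.247 and 0.287), and 1673 probes were called over all clones, 0 in control clones (3810 unadjusted) and 5 for the difference in response. Control and KD clones of one number share only a number (correlations of 0.017 to 0.044 after mock treatment and -0.029 to 0.089 after 5-aza-dC). The block there gave 20 probes between mock clones and 7 between treated clones, and with slide 0 (1780 unadjusted) and 4, with ASNS at -0.065 and SESN2 at -0.31 after treatment.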

Other observations

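HSP90B1, an endoplasmic reticulum chaperone in the same arm as HSPA5, separated the arrays by slide. It was between 8.40 and 8.71 on the 5 arrays of slide 2 and between 6.85 and 7.74 on the 7 arrays of slide 1. The slide 2 range held mock control clone 3, at 8.59, and treated KD clone 2, at 8.71, whose other group members were on slide 1. HSPA5 did not separate in this way. The eIF2α kinase genes EIF2AK1 and EIF2AK4 did, with every array of slide 2 above every array of slide 1. EIF2AK4 was between 3.31 and 3.49 on slide 2 and between 2.08 and 2.63 on slide 1. EIF2AK2 separated the other way, between 1.64 and 2.42 on slide 2 and between 3.15 and 3.79 on slide 1. EIF2AK3 did not separate. These patterns were noticed after the values were seen, and their cause was not tested. The share of all probes that separate the slides in this way was not computed.

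NUPR1, a stress-induced chromatin protein that partners ATF4, ranged from 0.05 to 4.36 among mock KD clones and from 0.16 to 2.35 among mock control clones. The treated control clones lay closer together, between 2.98 and 3.48.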
